A study of Mus musculus with 61 samples.

Results

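The genes described here encode 5 secreted vessel growth factors, 4 of their receptors and 1 adhesion protein of the endothelial surface, and they were followed across adipose tissue of 8 mouse strains. They were taken from the deposited count table by symbol, as Vegfa, Vegfb, Vegfc, Angpt1, Angpt2, Kdr, Flt1, Flt4, Tek and Pecam1. All 10 were among its 21169 genes, and all 10 were among the 18603 that passed the filter on low counts. The samples were 61 adipose RNA libraries from the strains that founded the Diversity Outbred mice, labelled 129, AJ, B6, Cast, NOD, NZO, PWK and WSB. There were 7 libraries each of 129, AJ and Cast and 8 of each other strain. Every group received the same high-fat, high-sugar diet, given in the labels as 45 percent fat, so no group on another diet was compared. The labels name no fat depot, age or sex, no genetic alteration and no sequencing batch. They number the libraries within each strain, and they do not state whether each came from a separate animal, so the p-values measure the spread between these libraries.

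Vegfa is the main secreted signal for growth of blood vessels and acts on endothelial cells through Kdr (VEGFR2), the receptor that carries most of its signal. Flt1 (VEGFR1) also binds Vegfa and Vegfb and, in its soluble form, acts as a decoy. Vegfc acts through Flt4 (VEGFR3), mainly on lymphatic vessels. Angpt1 activates the endothelial receptor Tek (Tie2) and steadies vessels, and Angpt2 competes with it at the same receptor. Pecam1 (CD31) joins endothelial cells to each other, and platelets and some leukocytes also carry it. In fat, the capillary bed supplies oxygen and takes part in the release and uptake of fatty acids, and adipocytes are themselves a source of Vegfa.

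Total counts ran from 19851580 to 61277576 per library. The lowest count of any of the 10 genes in any library was 61, for Vegfc. Levels of single genes below are CPM, read counts scaled to library size with TMM factors, unless stated otherwise. Summed levels of gene lists, and the Xist levels, are CPM of the library total without TMM factors. The 2 scales differ by library, so the sums are not on the scale of the gene levels. The tissue label was met by its marker genes: the summed level of 12 adipocyte genes lay between 11310 and 37250 CPM in every library. Liver genes passed 300 CPM in 6 libraries (AJ replicate 8, B6 replicate 6, Cast replicate 3 and PWK replicates 2, 4 and 7), genital duct genes in 5 (129 replicates 6, 7 and 9, B6 replicate 6 and NOD replicate 6) and skeletal muscle genes in 4 (AJ replicates 3 and 4, WSB replicates 1 and 9). Of 14 genital duct genes listed, only 2 were in the count table and 1, Crisp1, was tested, so that label rests on few genes. Cast replicates 5 and 6 stood apart from the other 5 Cast libraries. Their adipocyte sums were 11310 and 19480 CPM against 22750 to 37250 CPM, and their macrophage sums were 2084 and 1823 CPM against 738.6 to 1154 CPM. Vessel genes stood apart there too: the sum of the endothelial list was 1568 and 1285 CPM against 723.3 to 1067 CPM, that of large vessels 855.6 and 799.5 CPM against 266.2 to 361.3 CPM, and that of lymphatic endothelium 273.6 and 227.0 CPM against 92.79 to 143.2 CPM. The part of this tissue makeup in the Cast levels was not tested. Cast values of the 10 genes that move without the 2 libraries are given both ways beside each gene. Calls of listed genes in Cast use all 7 libraries and are not given without the 2. Sums of the hypoxia list, used further on, were 3690 and 4042 CPM in the 2 against 4162 to 5676 CPM. Those of the vessel growth pathway list were 3915 and 2307 CPM against 1597 to 2148 CPM. In bulk tissue, fewer cells of a type and less RNA per cell cannot be told apart.

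The upstream sequences of 4 of the genes are shown. The levels of Vegfa and Kdr varied together between libraries, as did those of Flt1 and Tek, in the values given further on. Vegfc and Flt4 varied together more closely, and their stretches are not shown. The sequences come from RefSeq on build GRCm38.p6, in which 7 of the 10 genes had an entry. They are written 5′ to 3′ on the gene's own strand and end just before its annotated start, with Vegfa at chr17:46032378-46032627 (minus strand), Kdr at chr5:75978459-75978705 (minus strand), Flt1 at chr5:147726012-147726261 (minus strand) and Tek at chr4:94739039-94739288 (plus strand). Capitals mark matches to 5 motifs searched on both strands: the core of the hypoxia response element, spelled ACGTG, an extended core of ETS factor sites, spelled CCGGAA, the TATA box, spelled TATAAA, a core of GATA factor sites, spelled AGATAA, and the GC box of Sp1, spelled GGGCGG. No match overlapped another within the stretches of Vegfa, Kdr and Flt1.
Vegfa: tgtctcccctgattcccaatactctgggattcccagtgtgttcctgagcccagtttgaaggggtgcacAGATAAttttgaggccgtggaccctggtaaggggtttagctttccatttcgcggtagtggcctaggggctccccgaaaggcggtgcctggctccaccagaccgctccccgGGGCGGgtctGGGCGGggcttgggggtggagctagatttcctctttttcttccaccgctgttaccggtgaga
Kdr: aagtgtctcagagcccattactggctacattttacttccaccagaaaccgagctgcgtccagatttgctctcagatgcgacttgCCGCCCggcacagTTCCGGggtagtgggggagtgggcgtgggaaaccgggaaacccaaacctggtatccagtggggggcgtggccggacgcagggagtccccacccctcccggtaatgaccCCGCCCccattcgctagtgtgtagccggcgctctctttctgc
Flt1: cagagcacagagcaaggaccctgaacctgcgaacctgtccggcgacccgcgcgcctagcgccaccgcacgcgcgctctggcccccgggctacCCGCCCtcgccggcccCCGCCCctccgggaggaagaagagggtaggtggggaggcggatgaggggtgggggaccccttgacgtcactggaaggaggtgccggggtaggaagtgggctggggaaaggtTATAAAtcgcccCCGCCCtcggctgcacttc
Tek: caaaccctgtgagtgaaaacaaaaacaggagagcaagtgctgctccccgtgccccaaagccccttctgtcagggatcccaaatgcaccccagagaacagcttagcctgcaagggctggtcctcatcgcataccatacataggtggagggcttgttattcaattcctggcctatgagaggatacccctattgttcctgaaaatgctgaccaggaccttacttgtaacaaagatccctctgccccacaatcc
These letters occurred at 3 places in the Vegfa stretch, 3 in Kdr, 4 in Flt1 and none in Tek. Kdr held the ETS core, Flt1 the TATA box and Vegfa the GATA core, and Vegfa, Kdr and Flt1 held GC boxes. Vegfa had a second RefSeq entry, at chr17:46025114-46025413 inside the gene, whose window held the hypoxia core and a GC box and is not printed. The stretches had a GC content of 59.2% for Vegfa, 61.5% for Kdr, 70.4% for Flt1 and 51.2% for Tek. The shares over all promoters refer to longer windows that also take in the first bases of each transcript, where Tek held a GATA core. Over 32851 such windows, the GC box occurred in 35.7%, the hypoxia core in 19.6%, the ETS core in 14.9%, the TATA box in 13.6% and the GATA core in 11.2%. A match describes the letters only. The strains' own alleles were not analysed here.

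Per kilobase of annotated exon, Vegfa was the most abundant of the 10, with a mean of 53.3 CPM per kb over 61 libraries. Vegfb followed with 40.1 CPM per kb, Pecam1 with 39.7 CPM per kb and Kdr with 27.99 CPM per kb. Tek had 16.0 CPM per kb and Flt1 11.3 CPM per kb. The lymphatic pair and the angiopoietins were scarce, with 3.40 CPM per kb for Flt4, 3.38 CPM per kb for Angpt2, 3.05 CPM per kb for Vegfc and 2.90 CPM per kb for Angpt1. Counts per gene do not separate the soluble from the membrane form of Flt1.

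Expression of 9 of the 10 genes differed among the 8 strains in edgeR's quasi-likelihood F-test with Benjamini-Hochberg adjustment, beside 89.9% of all genes tested. The exception was Flt1, with an adjusted p of 0.213. The share of variance in log2 CPM that lay between strains was 76.2% for Vegfa, a share above that of 90.08% of the genes tested. It was 54.73% for Angpt1, 49.2% for Kdr and 44.14% for Vegfc, around the 48.71% of the median gene. The other genes had less: 38.28% for Vegfb, 30.7% for Tek, 27.66% for Pecam1, 25.22% for Angpt2, 23.73% for Flt4 and 14.29% for Flt1. Strain pairs were told apart in 76 of 280 tests, beside 37.1% of all gene and pair combinations. Of 28 pairs each, Vegfa differed in 19, Vegfc in 11, Angpt1 in 10, Kdr in 9, Vegfb in 8, Pecam1 in 6, Flt4 and Tek in 5, Angpt2 in 3 and Flt1 in 0. Each strain was also set against the mean of the other 7. These 8 comparisons share libraries, and their values stand side by side here without a test between them.

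**Figure D1:**
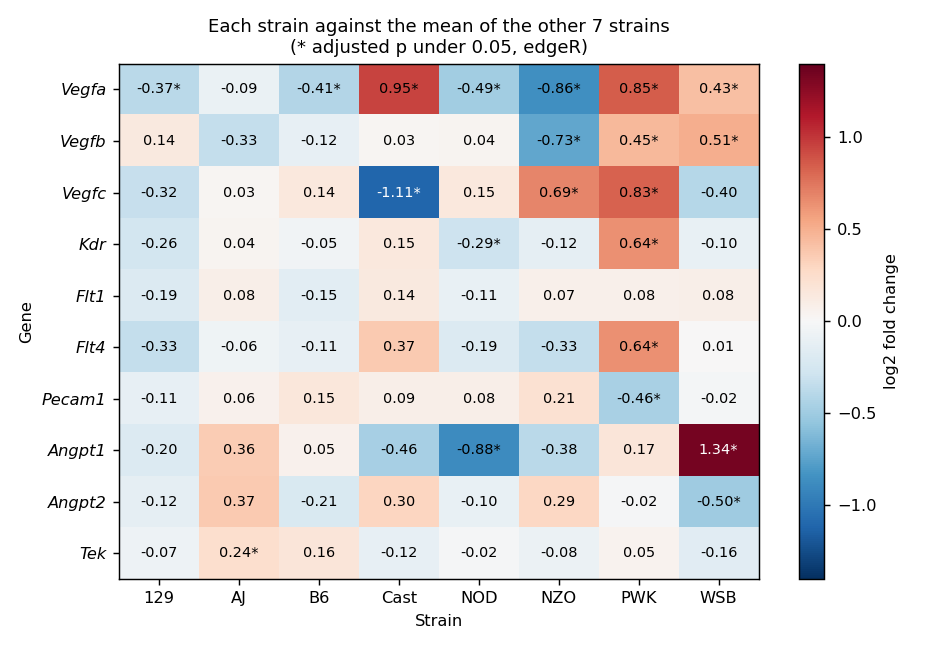
Log2 fold change (colour and printed value) of each of the 10 genes (rows) in each strain (columns) against the mean of the other 7 strains; asterisks mark an adjusted p under 0.05 in edgeR. Vegfa carries an asterisk in every strain but AJ, Flt1 in none, and PWK holds the most, 6 of 10.

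Vegfa (ENSMUSG00000023951, chr17:46016993-46032377, minus strand) was highest in Cast, PWK and WSB and lowest in NZO. Its lowest, median and highest levels were 246, 363 and 488 CPM in Cast. In PWK they were 249.8, 355 and 499 CPM, and in WSB 154, 287 and 334 CPM. Every Cast and PWK library exceeded every library of B6, NOD, NZO and AJ, while the lowest WSB library, replicate 7, fell inside the range of those strains. In AJ the levels were 147, 211 and 237 CPM, and in 129 they were 118, 176 and 253 CPM. In B6 they were 116, 174 and 188 CPM, in NOD 93.5, 163 and 199.8 CPM and in NZO 95.7, 127 and 154 CPM. The strain means fell in the order Cast (378 ± 95.1 CPM, SD, n = 7), PWK (357 ± 86.4 CPM, n = 8), WSB (276 ± 56.1 CPM, n = 8), AJ (202 ± 31.4 CPM, n = 7), 129 (169.998 ± 48.0 CPM, n = 7), B6 (166 ± 21.7 CPM, n = 8), NOD (158 ± 34.4 CPM, n = 8) and NZO (126 ± 21.0 CPM, n = 8). Of the neighbours in that order, WSB and AJ differed (adjusted p = 0.0213). PWK and WSB did not pass (adjusted p = 0.0502), nor did the other adjacent pairs.

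Against the other 7 strains, Vegfa was higher in Cast by 0.95 ± 0.116 on the log2 scale (SE, adjusted p = 6.03e-10), with 7 of 7 libraries above the median of the others. It was higher in PWK by 0.85 ± 0.11 (adjusted p = 5.02e-09, 8 of 8 libraries) and in WSB by 0.43 ± 0.114 (adjusted p = 0.00164, 7 of 8 libraries). It was lower in NZO, with a log2 fold change of −0.86 ± 0.128 (adjusted p = 8.8e-08, 8 of 8 libraries). The most distant pair was Cast and NZO, 1.58 ± 0.164 apart on the log2 scale (adjusted p = 4.35e-12). Lower levels were also called in NOD (−0.49 ± 0.124, adjusted p = 0.00204), B6 (−0.41 ± 0.123, adjusted p = 0.00947) and 129 (−0.37 ± 0.13, adjusted p = 0.0353). The 129 call was lost on leaving out any 1 of 129 replicates 1, 4, 6 or 9, with adjusted p from 0.0554 to 0.135. It was also lost without the libraries rich in genital duct genes (−0.35, adjusted p = 0.12) and without those rich in muscle genes (−0.34, adjusted p = 0.0623). Without Cast replicates 5 and 6, Vegfa stood at 1.06 ± 0.129 in Cast (adjusted p = 1.21e-09), and the other 5 Cast libraries had 407.9 ± 89.7 CPM (SD).

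Markers of brown and beige adipocytes were higher in the 3 strains with the most Vegfa. Of 7 such genes, 7 were higher in Cast, 6 in PWK and 6 in WSB, beside 29.6%, 24.6% and 25.6% of all genes. In NOD 6 were lower, in NZO 5 and in B6 2, beside 11.8%, 26.6% and 11.7% of all genes. In 129, where Vegfa was lower, and in AJ none was called in either direction, with list medians of 0.31 and −0.59. Among them Ucp1, the uncoupling protein of heat-producing fat, was higher in WSB (log2 fold change 2.50 ± 0.80) and PWK (2.28 ± 0.81) and lower in NOD (−6.13 ± 1.52). The summed level of the list was uneven within strains. It ran from 82.8 to 2010 CPM in Cast, from 13.2 to 1589 CPM in PWK and from 70.9 to 2034 CPM in WSB, against 14.4 to 315 CPM in B6, 58.7 to 141 CPM in NZO and 23.6 to 87.1 CPM in NOD. It reached 1104 CPM in 129 and 727 CPM in AJ. The part of these cells in the Vegfa result was not tested. Of 23 hypoxia-pathway genes, 9 were higher and 1 lower in Cast, beside 29.6% and 26.6% of all genes. In PWK 6 were higher and 3 lower (24.6% and 19.0% of all genes), in WSB 8 and 3 (25.6% and 23.7%) and in NZO 3 and 9 (27.2% and 26.6%). The PWK share higher was near that of all genes. Their median log2 fold change was 0.25 in Cast, 0.05 in PWK, 0.14 in WSB and −0.15 in NZO, beside 0.02, 0.03, −0.01 and −0.02 for all genes. Slc2a1, a glucose transporter gene, rose in Cast (1.60 ± 0.136) and fell in PWK (−1.10 ± 0.162); PWK and Cast were not tested against each other for it. Pdk1, a pyruvate dehydrogenase kinase gene, was higher in PWK (0.94 ± 0.212) and WSB (1.15 ± 0.209). The glycolysis gene Pgk1 was lower in NZO (−1.29 ± 0.161). Listed genes also moved the other way in these strains. In NZO Car9 (1.99 ± 0.289, at a mean of 1.37 CPM) and Adm (0.70 ± 0.219) were higher. In WSB Car9 (−1.82 ± 0.411, at a mean of 0.131 CPM) and Hif1a (−0.585 ± 0.122) were lower.

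Vegfb (ENSMUSG00000024962, chr19:6982473-6987651, minus strand), a Flt1 ligand, was highest in WSB and PWK and lowest in NZO. The lowest, median and highest levels were 71.3, 85.02 and 94.95 CPM in WSB and 60.8, 75.0 and 125 CPM in PWK. In NZO they were 25.6, 33.4 and 67.8 CPM. No WSB library was as low as any NZO library, and PWK overlapped NZO between 60.8 and 67.8 CPM. Against the other strains the log2 fold change was 0.51 ± 0.16 in WSB (adjusted p = 0.00692, 8 of 8 libraries), 0.45 ± 0.161 in PWK (adjusted p = 0.0189, 7 of 8) and −0.73 ± 0.178 in NZO (adjusted p = 0.000517, 8 of 8). The PWK call was lost without the libraries rich in liver genes, which include PWK replicates 2 and 7 with the most Vegfb (0.31, adjusted p = 0.248), and on leaving out replicate 2 (0.34, adjusted p = 0.105) or replicate 7 (0.40, adjusted p = 0.0571). In Cast the level was 14.4 and 16.6 CPM in replicates 5 and 6 against 63.8 to 97.5 CPM in the others. The Cast log2 fold change was 0.42 ± 0.13 without those replicates (adjusted p = 0.00605), while with them Cast was not called (0.03).

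Vegfc (ENSMUSG00000031520, chr8:54077532-54186454, plus strand), the lymphatic growth factor, did not follow Vegfa over the strains. It was lowest in Cast, at 2.95, 3.29 and 4.51 CPM for the lowest, median and highest library. It was high in NZO, at 7.48, 10.48 and 12.7 CPM, and in PWK, at 3.17, 10.9 and 21.2 CPM. The Cast libraries lay below every NZO library, whereas PWK spread over most of the whole range, with replicates 2 and 7 at 3.81 and 3.17 CPM. Against the other strains it stood at −1.11 ± 0.241 in Cast on the log2 scale (adjusted p = 9.1e-05, 7 of 7 libraries), 0.69 ± 0.194 in NZO (adjusted p = 0.00237, 8 of 8) and 0.83 ± 0.192 in PWK (adjusted p = 0.000365, 6 of 8). Cast replicates 5 and 6 had 3.37 and 3.06 CPM, inside the range of the other Cast libraries, and without them the Cast value was −1.06 ± 0.285 (adjusted p = 0.00174). The strain means of the other 5 strains lay between 5.43 CPM (WSB) and 7.62 CPM (NOD), and no neighbours in the order of means differed. WSB, the lowest of the 5, was not called (−0.40, adjusted p = 0.114), and it was called without its replicate 7 (−0.59, adjusted p = 0.0246), with the replicate number as a block (−0.49, adjusted p = 0.0414) and with log2 Xist as a covariate (−0.47, adjusted p = 0.0139).

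**Figure D2:**
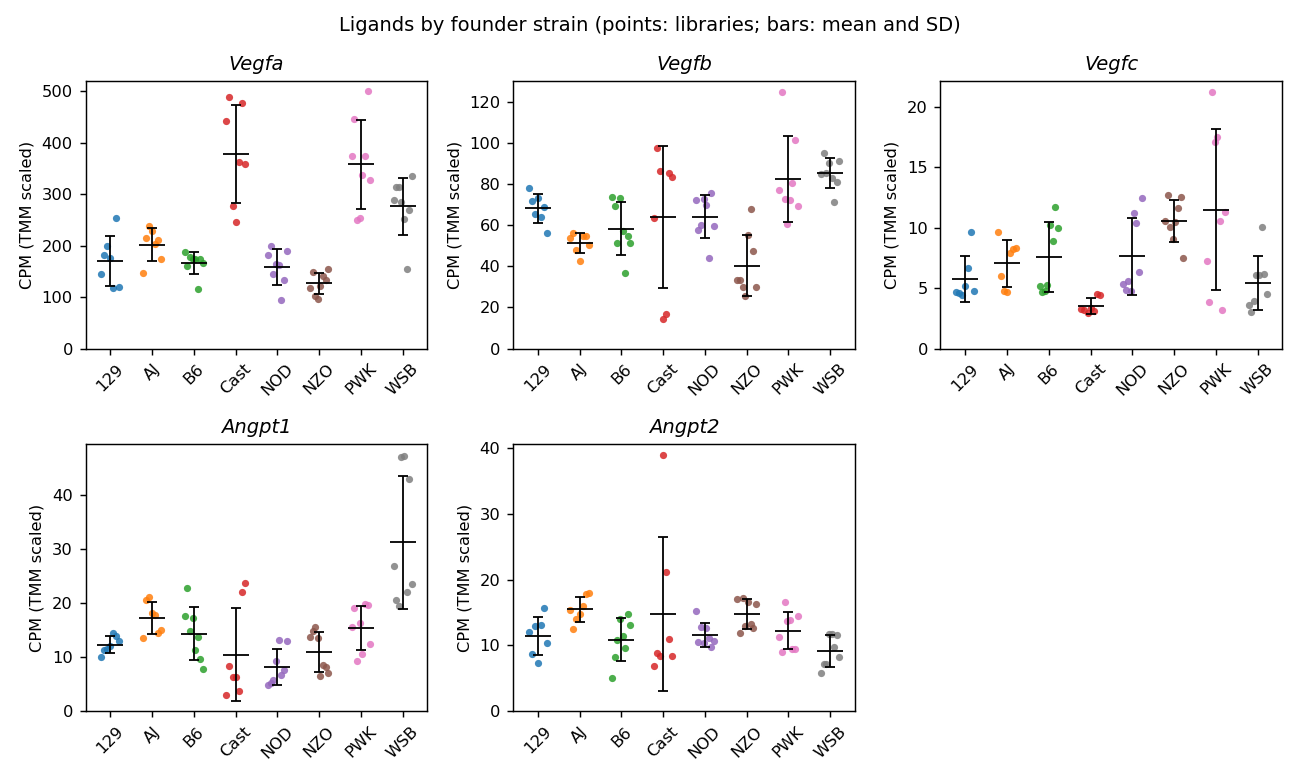
Level in CPM (vertical axes, from 0) of the 5 ligand genes in each of 61 libraries (points) by strain, with the mean and SD of each strain as bars. Vegfa is highest in Cast and PWK, Vegfc lowest in Cast, and Angpt1 highest in WSB; 2 Cast libraries lie apart in Vegfb and Angpt2.

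Among the receptors, Kdr (ENSMUSG00000062960, chr5:75932827-75978458, minus strand) was high in PWK, at 303, 333 and 479.7 CPM for the lowest, median and highest library. In the other 7 strains its medians lay between 209 CPM (NOD) and 253 CPM (AJ). Only 2 of the 53 libraries of other strains reached the PWK range, and the highest was Cast replicate 7 at 424 CPM. The log2 fold change in PWK was 0.64 ± 0.0954 (adjusted p = 1.74e-07, 8 of 8 libraries). PWK and Cast, the next strain in the order of means (366 ± 68.4 and 272 ± 74.1 CPM, n = 8 and 7), differed with an adjusted p of 0.00924, and no other neighbours did. Vegfa was high in both strains. Kdr was not called in Cast with all its libraries (0.15) or without Cast replicates 5 and 6 (0.21, adjusted p = 0.143). Kdr was lower in NOD, at 148, 209 and 264 CPM (log2 fold change −0.29 ± 0.103, adjusted p = 0.028). This call was lost without NOD replicate 6 (−0.24, adjusted p = 0.103), a library rich in genital duct genes.

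Flt1 (ENSMUSG00000029648, chr5:147561604-147726011, minus strand), the decoy and Vegfb receptor, had strain means from 135 CPM in 129 to 165 CPM in Cast and was not called in any strain. The place of Cast rests on replicates 5 and 6 (269 and 185 CPM): the other 5 Cast libraries had 140.0 ± 23.6 CPM (SD, n = 5), and the Cast log2 fold change turned from 0.14 to −0.096 without the 2, uncalled both ways. All 61 libraries lay between 102 and 269 CPM, and the strain ranges overlapped. The highest level was Cast replicate 5, and NZO spread from 102 to 244 CPM. Leaving out each library in turn gave adjusted p from 0.0947 to 0.315 for a difference among strains, and leaving out both Cast libraries gave 0.145.

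Flt4 (ENSMUSG00000020357, chr11:49609263-49652739, plus strand), the receptor of Vegfc, was highest in PWK, at 19.8, 41.0 and 66.9 CPM for the lowest, median and highest library. The 2 lowest PWK libraries, replicates 7 and 2 with 19.8 and 20.1 CPM, were also the lowest in Vegfc. PWK differed from the other strains by 0.64 ± 0.186 on the log2 scale (adjusted p = 0.00405, 6 of 8 libraries). In Cast, where its ligand was lowest, Flt4 was not called (0.37, adjusted p = 0.112). It was called there with log2 Xist as a covariate (0.35, adjusted p = 0.0354), and without Cast replicates 5 and 6 it stood at 0.15 (adjusted p = 0.619). In NZO it was not called (−0.33, adjusted p = 0.166), and it was with log2 Xist as a covariate (−0.35, adjusted p = 0.0391) or the replicate number as a block (−0.35, adjusted p = 0.0426). The log2 ratio of Vegfc to Flt4 was −3.25 ± 0.441 in Cast (SD, n = 7; range −4.08 to −2.84) and −1.06 ± 0.464 in NZO (n = 8; range −1.90 to −0.55), so the 2 strains did not overlap. The difference of Flt4 among strains (adjusted p = 0.0201) was lost without PWK replicate 6 (adjusted p = 0.0783) and without PWK replicate 4 (adjusted p = 0.0548). Of 7 lymphatic endothelial genes, 4 were higher in PWK and none lower, beside 24.6% of all genes higher. Among them were Mmrn1, a secreted protein of lymphatic vessels (1.72 ± 0.545), and Prox1, the transcription factor that sets lymphatic identity (1.70 ± 0.417). The median of the list was 0.58 against 0.03 for all genes. In NZO, where Vegfc was high, none was higher and 2 were lower, beside 27.2% and 26.6% of all genes, so the lower share was near that of all genes. Their median there was −1.17. The summed level of the list ran from 36.9 to 299.6 CPM in PWK and from 42.1 to 167 CPM in NZO.

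Pecam1 (ENSMUSG00000020717, chr11:106654217-106750628, minus strand) was lower in PWK, the strain with the most Kdr. Its lowest, median and highest levels there were 132, 186 and 248 CPM, and 8 of 8 libraries lay below the median of the others. The log2 fold change was −0.46 ± 0.119 (adjusted p = 0.00138). The means of the other strains lay between 229.7 CPM in 129 and 279.6 CPM in NZO, with no neighbours that differed. The Cast mean of 258.7 CPM rests on replicates 5 and 6 (413.9 and 374.2 CPM). The other 5 Cast libraries had 204.6 ± 38.8 CPM (SD, n = 5), below the mean of 129 and inside the PWK range but for the highest, and without the 2 the Cast log2 fold change turned from 0.09 to −0.25 (adjusted p = 0.0916). The log2 ratio of Kdr to Pecam1 was 0.99 ± 0.548 in PWK (SD, n = 8; range 0.365 to 1.87), and its means in the other strains ran from −0.32 in NOD to 0.12 in Cast. The PWK range overlapped those of AJ, Cast and WSB. The difference of Pecam1 among strains (adjusted p = 0.0172) was lost without the libraries rich in liver genes (adjusted p = 0.11), with the replicate number as a block (adjusted p = 0.0586) and without PWK replicate 7 (adjusted p = 0.0516). Of 16 other endothelial genes, 6 were lower in PWK and none higher, beside 19.0% of all genes lower. They included Plvap, a protein of capillary pores (−0.79 ± 0.183), and Nos3, the endothelial nitric oxide synthase (−0.53 ± 0.138). The vessel lists were not alike in PWK. Of 8 genes of fat capillaries 1 was higher and 1 lower (list median −0.07). Of 10 large-vessel genes 1 was higher and 5 were lower (list median −0.53). The shares of all genes were 24.6% higher and 19.0% lower. In NZO 7 of the 16 were higher and 1 lower, beside 27.2% of all genes higher, and Cd93 led them (1.12 ± 0.0796). Their summed level ran from 774 to 1373 CPM in PWK and from 1328 to 2357 CPM in NZO. The other vessel lists rose less in NZO. Of the 8 fat capillary genes 1 was higher and 2 were lower there (list median 0.01). Of the 10 large-vessel genes 2 were higher and 1 was lower (list median 0.20). The shares of all genes in NZO were 27.2% higher and 26.6% lower.

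**Figure D3:**
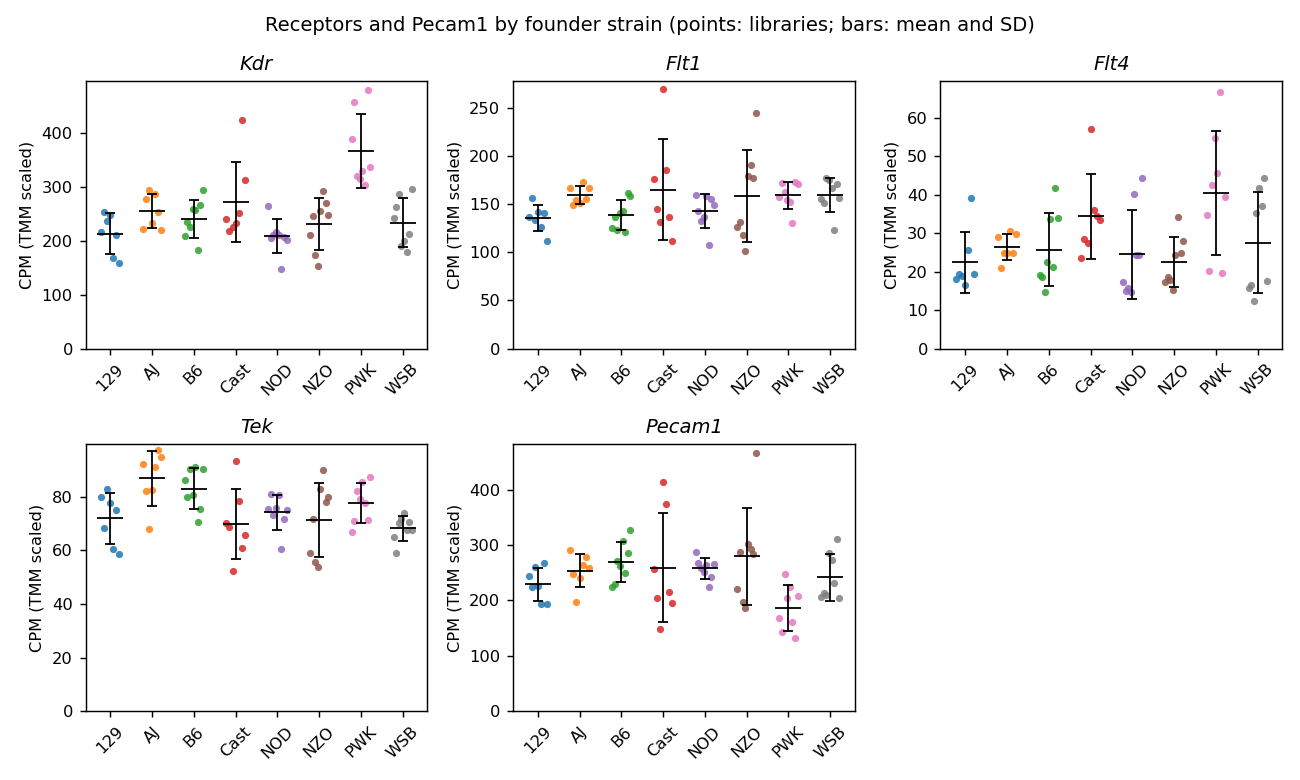
Level in CPM (vertical axes, from 0) of the 4 receptor genes and Pecam1 in each of 61 libraries (points) by strain, with the mean and SD of each strain as bars. Kdr is highest and Pecam1 lowest in PWK, while Flt1 shows overlapping strains.

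Angpt1 (ENSMUSG00000022309, chr15:42424727-42676977, minus strand), the activating ligand of Tek, was highest in WSB. Its lowest, median and highest levels in WSB were 19.5, 25.2 and 47.2 CPM, and no library of another strain exceeded 23.8 CPM. Of 53 other libraries, 7 lay inside the WSB range. WSB replicates 5, 6 and 8 had 47.1, 47.2 and 43.0 CPM, and the other 5 lay between 19.5 and 26.8 CPM. The log2 fold change was 1.34 ± 0.193 (adjusted p = 7.89e-08, 8 of 8 libraries). WSB and AJ, the next strain (31.2 ± 12.3 and 17.2 ± 3.01 CPM, n = 8 and 7), differed with an adjusted p of 0.0164. Angpt1 was lowest in NOD, at 4.76, 7.15 and 13.1 CPM (−0.88 ± 0.233, adjusted p = 0.00331, 8 of 8 libraries). Cast held both low and high libraries, from 3.07 CPM in replicate 1 to 21.96 and 23.8 CPM in replicates 7 and 8. It was not called (−0.46), and on leaving out replicate 7 or 8 it was called (−0.75, adjusted p = 0.00937, and −0.80, adjusted p = 0.00491). Replicates 5 and 6 were low (6.24 and 3.67 CPM), and without them the value was −0.18 (adjusted p = 0.589). Limma on the deposited log2 values called it lower (−0.59, adjusted p = 0.00457). The Angpt1 estimates were not whole in 35 libraries, as for reads divided between genes, and 737 of its exon bases (14.2%) overlap the antisense gene Gm17473. Whether counting used strand is not given in the sources used here, so the reads of the pair cannot be told apart and the Angpt1 levels are uncertain to that extent.

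Angpt2 (ENSMUSG00000031465, chr8:18690263-18741562, minus strand), which competes with Angpt1, was lower in WSB, at 5.76, 8.94 and 11.8 CPM for the lowest, median and highest library. The log2 fold change was −0.50 ± 0.177 (adjusted p = 0.0165, 8 of 8 libraries). The call was lost without WSB replicate 1 (−0.43, adjusted p = 0.0511) and without the libraries rich in muscle genes (−0.40, adjusted p = 0.108), which include that replicate. In Cast the level was 38.9 and 21.2 CPM in replicates 5 and 6 and 6.84 to 10.96 CPM in the other 5. With all 7 libraries the Cast log2 fold change was 0.30 and not called. Without replicate 1 it was called higher (0.42, adjusted p = 0.0428), and without the 2 it turned to −0.47 ± 0.156 (adjusted p = 0.0103). The difference among strains (adjusted p = 0.0254) was lost without the libraries rich in muscle genes (adjusted p = 0.0936). Angpt2 lies within Mcph1 on the opposite strand and shares no exon base with it.

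The log2 ratio of Angpt1 to Angpt2 was 1.73 ± 0.354 in WSB (SD, n = 8; range 1.19 to 2.22). Its means in the other 7 strains ran from −0.61 in Cast to 0.39 in B6, and single libraries of B6 (up to 1.79) and Cast (up to 1.51) reached the WSB range. WSB had more of the activating ligand and less of the competing one, each called in its own test, and the second call rests on replicate 1. The ratio was not tested.

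**Figure D4:**
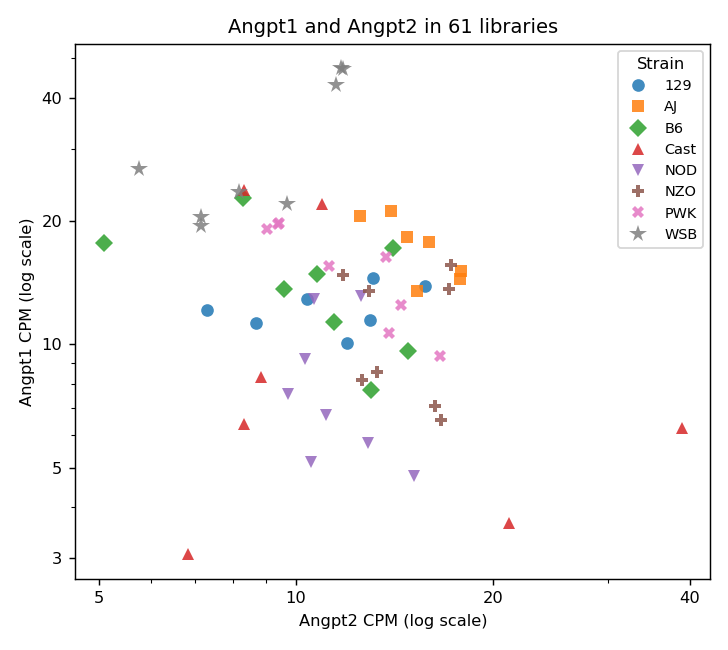
Angpt1 against Angpt2 level in CPM, both on log axes, in 61 libraries, with a symbol and colour for each strain. WSB libraries lie at the upper edge, and 2 Cast libraries (replicates 5 and 6) lie far to the right, at 38.9 and 21.2 CPM of Angpt2.

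Tek (ENSMUSG00000006386, chr4:94739289-94874976, plus strand), the angiopoietin receptor, spanned 52.2 to 97.5 CPM over all 61 libraries. It was highest in AJ, at 67.9, 91.2 and 97.5 CPM for the lowest, median and highest library. The log2 fold change in AJ was 0.24 ± 0.0735 (adjusted p = 0.0125, 6 of 7 libraries), and 40 of the 54 other libraries lay inside the AJ range. The call was lost without AJ replicate 6 (0.21, adjusted p = 0.052) and without the libraries rich in liver genes (0.20, adjusted p = 0.0606). In WSB, where Angpt1 was highest, Tek had the lowest mean, 68.2 ± 4.62 CPM (n = 8), with all libraries in, and was not called (−0.16, adjusted p = 0.0603). That lies close to the threshold: Tek was called in WSB in 8 of the 61 fits that left out 1 library (adjusted p from 0.0391 to 0.0489), with log2 Xist as a covariate (−0.17, adjusted p = 0.0331), in DESeq2 (−0.16, adjusted p = 0.0424) and without the libraries rich in liver or in genital duct genes (−0.18 in both, adjusted p = 0.0287). Cast replicates 5 and 6 had 93.4 and 78.4 CPM, and the other 5 Cast libraries, at 63.5 ± 7.198 CPM (SD, n = 5), had a lower mean than WSB. Without the 2, Tek was called in Cast (−0.26 ± 0.0828, adjusted p = 0.00904), while with them it was not (−0.12).

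By strain, 6 of the 10 genes were called in PWK against the other 7 strains (5 higher, 1 lower), beside 43.6% of all genes. In WSB 4 were called (3 higher, 1 lower), beside 49.3%, and in NZO 3 (1 higher, 2 lower), beside 53.9%. In NOD 3 were called, all lower, beside 26.5%. Cast had 2 calls in opposite directions, beside 56.2%. The strains 129 and B6 had 1 call each, for lower Vegfa, and AJ had 1, for higher Tek, beside 18.6%, 26.3% and 23.0% of all genes. The median log2 fold change of the 10 genes was 0.31 in PWK, beside 0.03 for all genes, and between −0.19 in 129 and 0.11 in Cast in the other strains. In NZO, where Vegfa and Vegfb were lower and Vegfc higher, macrophage and adipocyte markers moved as well. All 12 macrophage entries were higher there, with a sum of 2799 to 8023 CPM against 341 to 3250 CPM in the other strains, and 8 of 12 adipocyte genes were lower and 1 higher, with a sum of 11610 to 25070 CPM, beside 27.2% of all genes higher and 26.6% lower. In WSB 8 of 12 adipocyte genes were higher and 1 lower, and 10 of 12 macrophage entries were lower and none higher, beside 25.6% of all genes higher and 23.7% lower. The part of these cells in the results was not tested. Without Cast replicates 5 and 6, the calls were 5 in Cast (Vegfa, Vegfb, Vegfc, Angpt2 and Tek), 5 in NZO, with Pecam1 (0.26) and Angpt2 (0.40) added, 3 in AJ, with Vegfb (−0.39) and Angpt2 (0.47) added, and 2 in B6, with Tek (0.18) added.

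Other genes of the vessel growth pathway were taken from a list of 25, of which 24 were tested. In Cast 4 were higher and 11 lower, beside 29.6% and 26.6% of all genes. The lower ones included Apln (−1.77 ± 0.266), the peptide apelin, and its endothelial receptor gene Aplnr (−1.69 ± 0.215). Placental growth factor Pgf, another Flt1 ligand, was higher in Cast (0.97 ± 0.263), as was the protease gene Adamts1 (0.66 ± 0.203). In NZO 9 were higher and 6 lower, beside 27.2% and 26.6% of all genes. Aplnr (1.46 ± 0.154) and Nrp2 (1.08 ± 0.0959), a co-receptor of Vegfc, were higher there, and Fgf2 (−1.30 ± 0.14), a fibroblast growth factor, and Ccbe1 (−0.94 ± 0.265), which is needed to activate Vegfc, were lower. In PWK 4 were higher and 4 lower, beside 24.6% and 19.0%, with Vash1, an inhibitor made by endothelium (1.14 ± 0.141), and Fgf2 (0.79 ± 0.117) higher and Nrp2 (−0.39 ± 0.109) lower. In NOD 9 were higher and 2 lower, beside 14.7% and 11.8%, led by Thbs1 (2.08 ± 0.256), an inhibitor of vessel growth, and Apln (1.15 ± 0.194). In AJ 8 were higher and 1 lower, beside 13.4% and 9.59%, with Aplnr (0.89 ± 0.17) and the Notch ligand gene Dll4 (0.79 ± 0.141) at the head. In B6 4 were higher and 1 lower, beside 14.6% and 11.7% of all genes. In WSB 1 was higher and 7 lower, beside 25.6% and 23.7%, and in 129 none was higher and 2 were lower, beside 10.8% and 7.78%.

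The 10 genes also varied between libraries of 1 strain. After the strain means were subtracted, log2 CPM over the 61 libraries had a Pearson r of 0.779 between Pecam1 and Tek, 0.699 between Flt1 and Pecam1 and 0.662 between Flt1 and Tek. Endothelium carries all 3. Without Cast replicates 5 and 6 these were 0.736, 0.612 and 0.583 over 59 libraries. Kdr, another endothelial receptor gene, varied less with them. Its r was 0.382 with Flt1, 0.226 with Tek and 0.0541 with Pecam1, and 0.516, 0.303 and 0.138 without the 2 Cast libraries. Vegfa varied with Kdr (r = 0.663, and 0.662 without the 2 Cast libraries), and less with Pecam1 (−0.00453 and 0.14). Vegfc varied with its receptor gene Flt4 (0.744 and 0.772). With log2 Xist also taken out, over 61 libraries, the r of Vegfc with Flt4 was lower, at 0.524. That of Vegfa with Kdr was then 0.661 and that of Pecam1 with Tek 0.747. The negative r between Vegfb and Angpt2 went from −0.621 to −0.204 without the 2 Cast libraries, and the positive r between Pecam1 and Angpt2 from 0.653 to 0.484. These are descriptions over points that share library depth and tissue makeup, and Xist, which varied widely within strains.

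The genes most like each of the 10 were taken from the same residuals, among genes whose mean level was 5 CPM or more. For Vegfa they were Adipor2, an adiponectin receptor (r = 0.754), Phyh (0.741) and Cfd, the adipocyte product adipsin (0.721). For Vegfb they were Spg7 (0.92), Car3 (0.915) and Tsc2 (0.909). Without Cast replicates 5 and 6, Adipor2 and Phyh stayed in the first 3 for Vegfa, and Spg7 alone did so for Vegfb (0.826). For the lymphatic pair they were Itgbl1, Mfge8 and Fam20c for Vegfc (0.861 to 0.845) and Ntn1, Sox13 and Lama5 for Flt4 (0.862 to 0.822). For Kdr they were Adora2a, Ldlrad3 and Prkce (0.797 to 0.744). Flt1 was most like Esam, Pkp4 and Adgrf5 (0.828 to 0.758), and without the 2 Cast libraries Epas1, a hypoxia-inducible factor gene, came first (0.852). Pecam1 was most like Sema3g, Lbr and Gpr182 (0.883 to 0.86), and Tek like Mmrn2, Sema3g and Cdh5 (0.778 to 0.76). Esam, Mmrn2 and Cdh5 stand on the list of endothelial markers and Sema3g on that of large vessels. For Tek, none of the 3 stayed among the first 3 without the 2 Cast libraries, when Hspa12b led (0.763). For Angpt1 they were Stx4a, Lgi2 and Ednra (0.708 to 0.626), and for Angpt2 Ralb, Arfgap3 and Jak2 (0.791 to 0.776). Without the 2 Cast libraries Angpt2 was most like Arhgef7, Cd93 and Klf6 (0.687 to 0.678). With log2 Xist also taken out of the residuals, the first 3 were the same for Pecam1 and Tek. They were Ntn1, Fgl2 and Npnt for Flt4 (0.69 to 0.672) and Rtn2, Itgbl1 and Mfge8 for Vegfc (0.747 to 0.741), both lower r than before. For Vegfb none of the 3 stayed, and D2hgdh, Lipe and Echdc3 came first (0.929 to 0.919). In each of the other 5 genes, 2 of the 3 stayed.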

How the data were processed

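Poly(A) RNA of adipose tissue was sequenced in 61 libraries, with spike-in controls added, per the labels' protocols. The authors deposited expected counts per gene (21.1% of values not whole within 1e-06) and, from them, log2 values that DESeq2 had variance-stabilised, per the submitters' processing notes, which also name build GRCm38. The aligner and counting tool are not given in the sources used here. Counts were rounded, filtered with filterByExpr by strain (18603 genes kept, 2566 removed), given TMM scaling factors and fitted with 1 mean per strain by robust quasi-likelihood in edgeR 4.0.16 under R 4.3.3. P-values were 2-sided and adjusted by Benjamini-Hochberg over all genes tested, and calls were made under 0.05. Logged CPM have a prior count of 2. The fit was tested on simulated data. Gene positions are those of the deposited annotation, and exon lengths and overlaps came from GENCODE on GRCm38. Alternatives used limma 3.58.1 on the deposited log2 values, DESeq2 1.42.0, other scalings and filters, and fewer libraries. The text names all 10 genes, the 3 genes most like each, and, of listed genes called in a strain, up to 2 at each extreme of fold change. Members and lists were chosen with earlier results of these data known. Correlations and mean levels without Cast replicates 5 and 6 were added after the data were seen. Sex was not inferred.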

Additional observations from a re-analysis of the deposited data

Results flagged for a closer look

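In 80 sets of 7 or 8 libraries (10 genes in 8 strains), 8 values stood far from the rest of their strain by Dixon's test at the 95% level. They come from fewer libraries, as WSB replicate 7 and 129 replicate 7 recur among them. The sets share libraries and are not independent. Chance alone flags about 1 in 20 sets. Vegfa was low in B6 replicate 6, at 116 CPM with the next library at 161 CPM, and in WSB replicate 7, at 154 CPM with the next at 252 CPM. Vegfc was high in 129 replicate 7 (9.65 CPM, next 6.69 CPM) and in WSB replicate 7 (10.1 CPM, next 6.197 CPM). Flt4, its receptor gene, was high in 129 replicate 7 (39.2 CPM, next 25.7 CPM) and in Cast replicate 5 (57.1 CPM, next 36.1 CPM). Pecam1 was high in NZO replicate 8, at 466 CPM with the next at 301 CPM, and Tek was low in NOD replicate 6, at 60.3 CPM with the next at 71.6 CPM. B6 replicate 6, 129 replicate 7 and NOD replicate 6 were among the libraries rich in genital duct genes. The part of any such tissue in these values was not tested.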

How the results depend on the processing

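Of 336 alternative values for the 21 called pairs of gene and strain, 325 kept direction and call, 11 kept direction and lost the call, and none reversed. The 11 belong to 5 pairs: Vegfa in 129, Tek in AJ, Kdr in NOD, Vegfb in PWK and Angpt2 in WSB. Of the 61 leave-one-out fits, only those with the lowest and highest fold change of a pair entered, and the minimum fold change did not. Over all 61 fits, the call was lost in 4 for Vegfa in 129 and 2 for Vegfb in PWK. It was lost in 1 each for Tek in AJ, Kdr in NOD and Angpt2 in WSB. Of the other 59 pairs, 13 were called under at least 1 of the alternatives that refit all genes, 8 of them without Cast replicates 5 and 6. The count of called genes moved by over 1.5 times as follows. In 129 it went from 1 to 0 without libraries rich in genital duct genes, without those rich in muscle genes and with a minimum log2 fold change of 0.5. In AJ it went from 1 to 0 without libraries rich in liver genes and with that minimum, and to 3 without Cast replicates 5 and 6. In B6 it went from 1 to 2 with a mean of at least 5 CPM, with log2 Xist as a covariate and without Cast replicates 5 and 6, and to 0 with the minimum. The same 2 Cast libraries, left out, gave 5 in Cast against 2 and 5 in NZO against 3. The minimum gave 1 in NOD against 3 and 2 in WSB against 4. Smaller moves were to 6 in WSB with log2 Xist, to 5 there with the replicate block, DESeq2, a mean of at least 5 CPM, without libraries rich in liver or genital duct genes and without WSB replicate 7, and to 3 without those rich in muscle genes. NZO went to 4 with the block and with log2 Xist, Cast to 3 with log2 Xist, with limma and without its replicate 8, PWK from 6 to 5 without libraries rich in liver genes and to 4 with the minimum, and NOD to 2 without those rich in genital duct genes. Leaving out each library in turn gave 0 to 1 in 129, 0 to 2 in AJ, 1 to 2 in B6, 2 to 3 in Cast and NOD, 3 to 4 in NZO, 5 to 6 in PWK and 3 to 5 in WSB. Xist ran from 0.0253 to 744 CPM, and the labels give no sex. Replicate numbers are shared by the strains without a stated pairing. Same-numbered libraries had a median correlation of deviations of 0.108 over 186 pairs, with 96 above 0.1, and 21 of 61 libraries were closest to their own number. Libraries of different number had a median of −0.0184 over 1441 pairs. With the replicate number as a block, 8 of the 10 genes differed among strains, Pecam1 being lost. In that fit 79 pair differences were called against 76. The lowest count behind a value was 61, for Vegfc.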
